A study of Sus scrofa with 8 samples.

Results

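Expression of 8 genes of the alveolar macrophage, CD14, CD163, SIGLEC1, CD68, FCGR1A, MSR1, MRC1 and LYZ, was examined in lung of 2 pig breeds, Tibetan and Duroc, each kept at high or at low altitude. Every non-control probe of the array that carried the symbol of one of these genes was taken, with symbols from the supplementary tables of the study or from the RefSeq accession of the array design, if it was well above background on at least 1 array. In this way 6 of the 8 genes were found, with 9 probes among the 34406 tested probes of 43603 on the array. CD163 had 3 probes, CD14 had 2, and SIGLEC1, FCGR1A, MRC1 and LYZ had 1 each. All 9 were well above background on all 8 arrays and none was saturated. No probe was named CD68, a lysosomal membrane protein, or MSR1, the class A scavenger receptor, and no value is given for them. The MRC1 probe was named only by the study's tables, which list differentially expressed genes, so its calls are not independent of those tables. The other 8 probes carried RefSeq accessions.

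Alveolar macrophages live on the air side of the alveolus and clear inhaled particles, microbes, dead cells and used surfactant. They do so through receptors that bind their targets directly, such as the scavenger and lectin receptors, or through antibody, such as the Fc receptors. They also secrete lysozyme, an enzyme that cuts the peptidoglycan of bacterial cell walls and that serous cells of the airway glands make as well. In pigs, CD163 and SIGLEC1 are further known as receptors used by porcine reproductive and respiratory syndrome virus on these cells.

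The study used a migrant design with 4 groups of female pigs, harvested at 6 months of age, and 2 pigs of each group were drawn at random for that harvest. Tibetan pigs stayed at 3500 m (TH) or were moved to 40 m at 1 month of age (TL), and Duroc pigs stayed at 40 m (DL) or were moved to 3500 m at 1 month of age (DH). RNA of whole lung tissue was hybridized to 1-color Agilent arrays, 2 arrays for each group. The labels call the 2 arrays replicates, and the methods state that the cRNA of each animal was hybridized on its own, 1 sample to an array. Levels below are the deposited log2 values, differences are in log2 units, and effects were called where the FDR, adjusted over all tested probes, was below 0.0001. The 3 effects were the breed effect (Tibetan minus Duroc), the altitude effect (high minus low) and the interaction (TH minus TL, less DH minus DL). The TH and DL arrays shared 1 slide and the DH and TL arrays the other, and it was also the TL and DH pigs that had been moved. The interaction, the slide and the move therefore cannot be told apart, whereas the breed and altitude effects were balanced over the slides.

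Between 26466 and 31723 probes were well above background on an array. The raw median signal was 324 and 333.5 on the TL arrays and between 207.5 and 230 on the other 6. Arrays of the same group differed by a median of 0.03 to 0.04 log2 units at 41 probes that were spotted 5 times, and spots of the same array differed by 0.05 at the same probes. P-values measure only this spread between arrays, which was no larger than that between spots of 1 array and may be technical. The type of tissue was borne out by surfactant genes of alveolar type II cells, with SFTPC between 18.57 and 18.97 and SFTPA1 between 18.55 and 18.99 as group means. In bulk tissue, fewer macrophages and less RNA per macrophage cannot be told apart.

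LYZ, the lysozyme gene, had the largest breed and altitude effects of the 9 probes. Its log2 values were 13.49 and 13.47 in TH, 15.53 and 15.58 in TL, 15.91 and 15.93 in DH, and 17.44 and 17.44 in DL. The 4 groups did not overlap, and the order was DL, DH, TL and TH from the highest to the lowest. The share of all tested probes whose groups did not overlap was not counted, here or for the genes below. In the contrasts between groups, 58.9% to 77.4% of all tested probes differed at an FDR below 0.05. On the scanner's own scale, the processed signal was 11660.7 and 11608.3 in TH against 170680 and 174855.3 in DL, groups that shared a slide. LYZ was 4.48-fold lower in Tibetan than in Duroc pigs (-2.16 ± 0.019, SE, n = 4 arrays per breed, limma FDR = 1.07e-06). It was 3.48-fold lower at high than at low altitude (-1.80 ± 0.019, SE, n = 4 arrays per altitude, limma FDR = 2.21e-06). Breed effects as large, in either direction, were found for 1.41% of all tested probes and altitude effects as large for 1.78%. The altitude difference had the same sign in both breeds, -2.08 ± 0.027 (SE) in Tibetan and -1.52 ± 0.027 (SE) in Duroc pigs. All 3 neighboring steps of the order passed an FDR of 0.05, the smallest being DH over TL, 0.37 (1.29-fold, limma FDR = 1.19e-04). TL minus DH was -1.19 with processed signals scaled to the 75th percentile, and the order of the groups was the same under all scalings. Both main effects stayed called without any single array, whichever it was, and with the scanner signals scaled in 4 other ways. The interaction of LYZ was -0.56 (FDR = 9.96e-05 in limma), at the edge of the threshold, and was -0.08 (FDR = 0.0928) when processed signals were scaled to their 75th percentile.

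**Figure D1:**
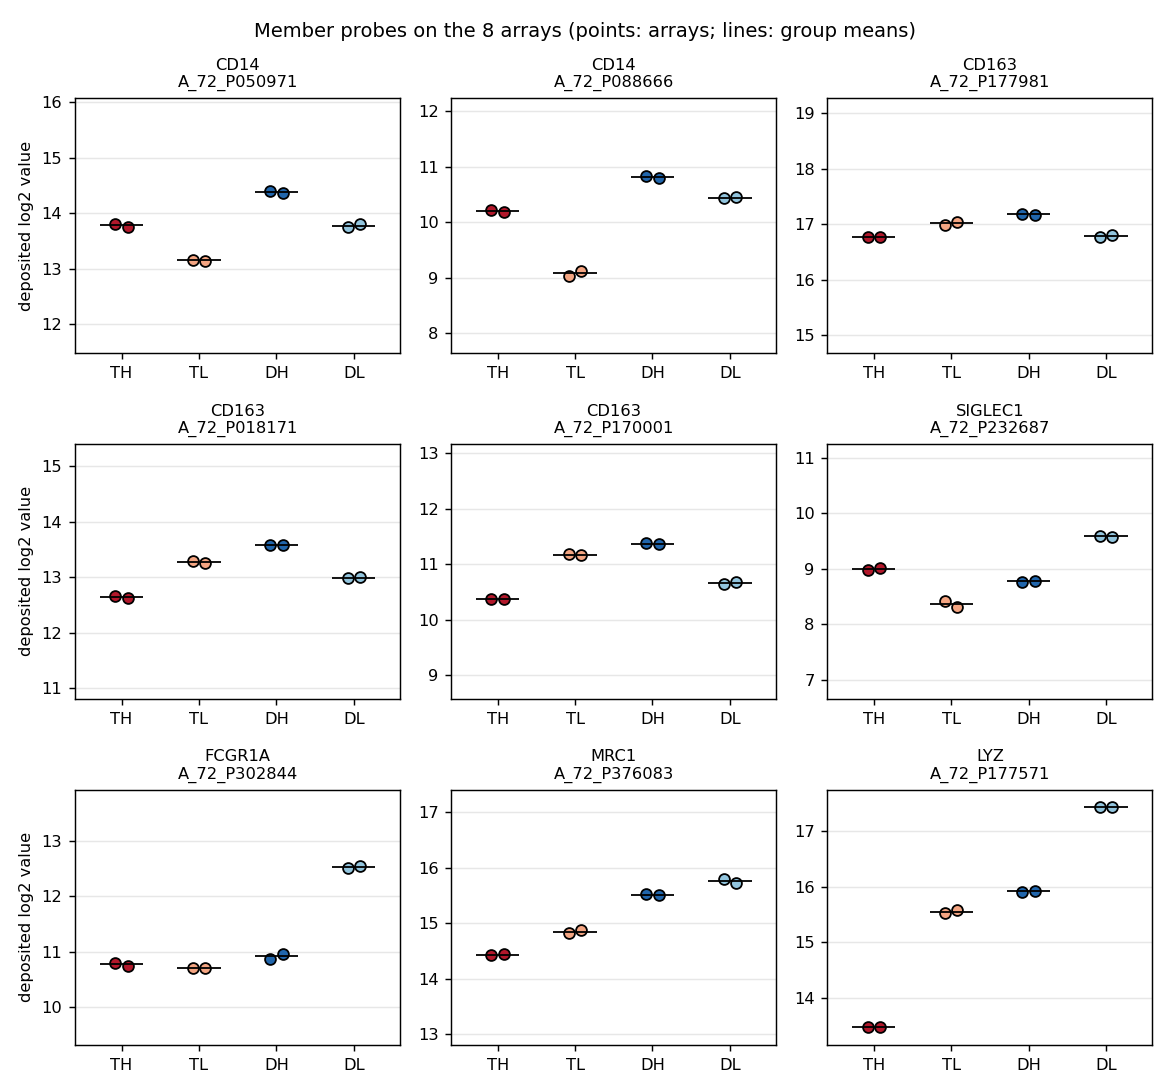
Deposited log2 values (vertical axis) of the 9 probes in the groups TH, TL, DH and DL (horizontal axis). Each point is 1 array and each line the mean of 2 arrays, and all panels span the same log2 range; LYZ runs from 13.48 in TH to 17.44 in DL, the widest range of the 9 probes.

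CD14 is a coreceptor that hands bacterial lipopolysaccharide to the TLR4 complex. Its brighter probe, A_72_P050971, read 13.81 and 13.76 in TH, 13.16 and 13.15 in TL, 14.41 and 14.37 in DH, and 13.75 and 13.80 in DL. Both DH arrays were the highest and both TL arrays the lowest, while TH and DL overlapped and differed by 0.01 (95% interval -0.08 to 0.10, limma FDR = 0.849). The other probe, A_72_P088666, read 10.22 and 10.18 in TH, 9.04 and 9.12 in TL, 10.84 and 10.80 in DH, and 10.43 and 10.45 in DL. Here the 4 groups did not overlap, and DH was again the highest and TL the lowest group. CD14 was lower in Tibetan pigs by both probes, -0.61 ± 0.025 (SE, limma FDR = 1.75e-05) and -0.99 ± 0.028 (SE, limma FDR = 5.67e-06). By deposited values CD14 was the only gene of the 6 that was called higher at high altitude, by 0.62 ± 0.025 (SE, limma FDR = 1.81e-05) and 0.75 ± 0.028 (SE, limma FDR = 1.39e-05). In both breeds the high altitude group was above the low altitude group by both probes, with 0.63 and 1.12 in Tibetan and 0.61 and 0.38 in Duroc pigs. The probes disagreed on the interaction, which was 0.02 (FDR = 0.802 in limma) at the first and 0.74 (FDR = 1.44e-04 in limma) at the second, neither of them called.

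FCGR1A encodes the high affinity receptor for IgG. Its values were 10.79 and 10.75 in TH, 10.70 and 10.71 in TL, 10.87 and 10.96 in DH, and 12.51 and 12.54 in DL. The DL arrays stood apart, and the other 6 lay within 0.3 log2 units of each other. DL was 3.05-fold above DH (limma FDR = 1.89e-05) and 3.53-fold above TL (limma FDR = 1.94e-06), and it was also 3.37-fold above TH, with which it shared a slide (limma FDR = 9.69e-06). In Tibetan pigs the altitude difference was 0.07 (95% interval -0.04 to 0.17, limma FDR = 0.196), and it was -0.0003 and -0.0006 under the scalings that started from the raw signal. The altitude difference thus differed between the breeds, with an interaction of 1.68 ± 0.058 (SE, limma FDR = 1.01e-05). The breed effect of -0.98 and the altitude effect of -0.77 were both called, and both rested on the high level in DL.

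CD163 is the receptor that takes up complexes of haptoglobin and hemoglobin. The brightest of its 3 probes, A_72_P177981, read 16.77 and 16.76 in TH, 16.99 and 17.04 in TL, 17.19 and 17.17 in DH, and 16.77 and 16.80 in DL. The middle probe, A_72_P018171, read 12.66 and 12.62 in TH, 13.30 and 13.25 in TL, 13.57 and 13.58 in DH, and 12.98 and 13.00 in DL. The dimmest, A_72_P170001, read 10.37 and 10.37 in TH, 11.18 and 11.17 in TL, 11.38 and 11.37 in DH, and 10.64 and 10.68 in DL. The groups did not overlap at the middle and the dimmest probe, and at the brightest only TH and DL met, at 16.77. At all 3 probes the order by deposited values was DH, TL, DL and TH, with the pigs that had been moved above those that had stayed in place. DH was above the other groups at all 3 probes under the 4 other scalings too. The order below it was not kept, and with processed signals scaled to the 75th percentile TL was the lowest group at the brightest probe and below DL at the middle probe. At the brightest probe DL exceeded TH by 0.02 (95% interval of TH minus DL -0.10 to 0.05, limma FDR = 0.584). The interaction was called at each probe, with -0.64 ± 0.041 (SE, limma FDR = 8.09e-05), -1.22 ± 0.041 (SE, limma FDR = 8.89e-06) and -1.52 ± 0.034 (SE, limma FDR = 2.91e-06). It remained negative under all 4 other scalings, at the brightest probe from -0.70 to -0.19. At that probe it was called under only 1 of them and lost its call whichever array was left out, with an FDR of at most 7.66e-04 in limma. In Duroc pigs, CD163 was higher at high altitude by 0.39, 0.59 and 0.71, and these differences had the same sign under all scalings. In Tibetan pigs it was lower at high altitude by deposited values (-0.25, -0.63 and -0.80), but with processed signals scaled to the 75th percentile the brightest probe turned to 0.39 and the middle probe was at -0.13 and not called. The altitude effect over both breeds was not called at any probe and lay between -0.05 and 0.07. It changed sign between scalings at each of the 3 probes, and after scaling to the 75th percentile it was called at the brightest, with 0.49.

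SIGLEC1, also named sialoadhesin, is a lectin that binds sialic acid on other cells and on microbes. Its probe read 8.99 and 9.02 in TH, 8.42 and 8.32 in TL, 8.77 and 8.78 in DH, and 9.59 and 9.58 in DL. The groups did not overlap, with DL the highest, TL the lowest and the unmoved pigs above the moved ones. The interaction was 1.44 ± 0.053 (SE, limma FDR = 1.18e-05), opposite in sign to that of CD163. SIGLEC1 was higher at high altitude in Tibetan pigs (0.63 ± 0.037, SE, limma FDR = 4.60e-05) and lower in Duroc pigs (-0.81 ± 0.037, SE, limma FDR = 6.27e-05). Its breed effect was -0.49 ± 0.026 (SE, limma FDR = 4.30e-05), and its altitude effect of -0.09 was not called. All of these directions were kept under the 4 other scalings. After scaling to the 75th percentile the breed effect was -0.29 and the Tibetan difference 0.32, neither of them called, and with an offset of 50 the Tibetan difference was 0.37.

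MRC1 is the mannose receptor, a lectin that binds sugars on microbes and on the body's own glycoproteins. Its values were 14.43 and 14.44 in TH, 14.82 and 14.87 in TL, 15.52 and 15.51 in DH, and 15.79 and 15.73 in DL. The groups did not overlap, and all 4 Duroc arrays were above all 4 Tibetan arrays. MRC1 was 2.00-fold lower in Tibetan pigs (-1.0 ± 0.024, SE, limma FDR = 3.94e-06). This effect stayed called with any single array left out and under the 4 other scalings. Within slides, TH was below DL by 1.33 (2.51-fold) and TL below DH by 0.67 (1.59-fold), both called. TL minus DH was -1.43 with processed signals scaled to the 75th percentile, and -0.64 and not called (FDR = 1.88e-04 in limma) with normexp without offset. The altitude effect of -0.33 (FDR = 1.33e-04 in limma) and the interaction of -0.17 (FDR = 0.0261 in limma) were not called, and both turned positive, to 0.08 and 0.42, with processed signals scaled to the 75th percentile.

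Across the 9 probes, the breed effect was negative at all 9 and called at 7, which covered all 6 genes. CD163 was covered by its middle probe alone (-0.33), which lost its call whichever array was left out. At the brightest and the dimmest CD163 probe the breed effect was -0.09 and -0.25, neither of them called. Of all tested probes 27.4% were called for the breed effect, 12.8% positive and 14.6% negative. Among the 3005 tested probes with a RefSeq accession, the type of probe that most of the 9 are, 28.5% were called and 19.6% were called negative. The median breed effect was -0.61 over the 9 probes and -0.07 over all tested probes. The negative sign at all 9 probes was kept under the 4 other scalings, though the size varied, at the brightest CD163 probe from -0.40 to -0.05.

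The altitude effect was called at 4 of 9 probes, beside 26.3% of all tested probes (14.0% positive and 12.2% negative) and 35.3% of RefSeq probes. Of RefSeq probes 25.2% were called positive and 10.2% negative. Both CD14 probes were higher at high altitude, and FCGR1A and LYZ were lower. The interaction was called at 6 of 9 probes, beside 28.4% of all tested probes (14.9% positive and 13.5% negative) and 27.7% of RefSeq probes. Of RefSeq probes 21.8% were called positive and 5.96% negative. Among the 9 probes the called interaction was negative for CD163 and LYZ and positive for FCGR1A and SIGLEC1. The median altitude effect of the 9 probes was -0.05, against 0.01 over all tested probes, and the median interaction was -0.17, against 0.21. Over RefSeq probes the median was 0.16 for altitude and 0.37 for the interaction. Scaling to the 75th percentile moved the median interaction of all tested probes to 0.33 and that of TH minus TL from 0.11 to 0.23.

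**Figure D2:**
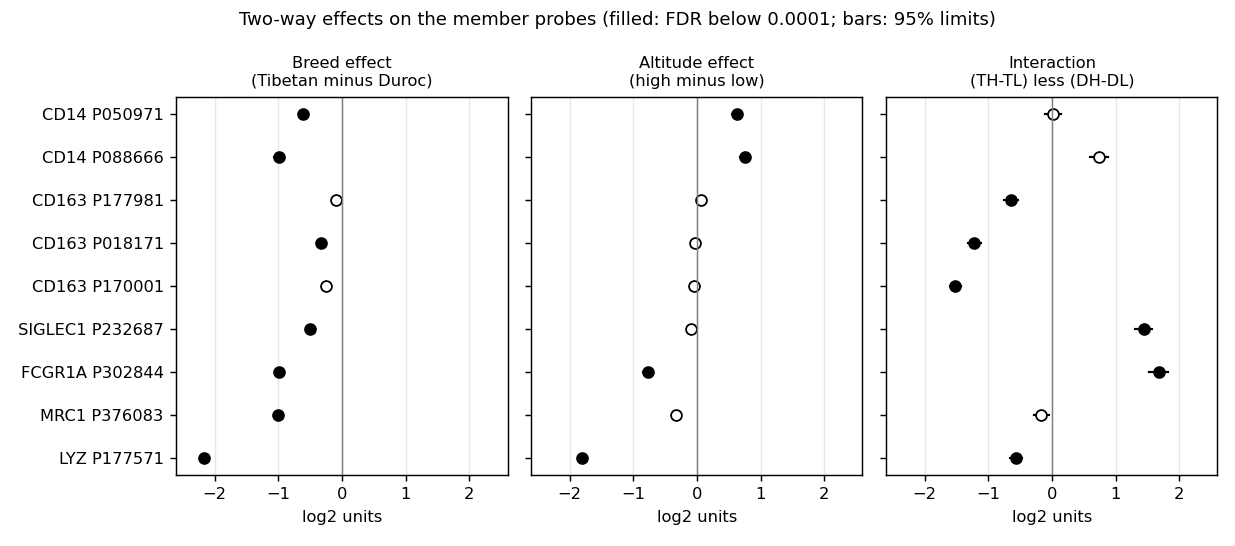
Breed effect, altitude effect and interaction of the 9 probes (horizontal axis, log2 units; 1 probe per line). Points are limma estimates from 8 arrays with 95% limits, filled where the FDR was below 0.0001; all 9 breed effects lie below 0, while altitude effects and interactions lie on both sides.

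Within breeds, TH minus TL was called at 6 of 9 probes, beside 37.1% of all tested probes (20.5% positive and 16.6% negative) and 42.6% of RefSeq probes. The positive ones were both CD14 probes and SIGLEC1, and the negative ones LYZ and 2 probes of CD163. DH minus DL was called at 5 of 9, beside 9.95% (5.83% positive and 4.12% negative) and 11.8% of RefSeq probes, with 2 probes of CD163 higher at high altitude and LYZ, FCGR1A and SIGLEC1 lower. None of the 5 stayed called at this threshold when a single array was left out, whichever array it was, although each kept an FDR below 0.05. LYZ was thus the only gene called lower at high altitude in both breeds. These contrasts compare arrays of different slides, and moved with unmoved pigs.

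**Figure D3:**
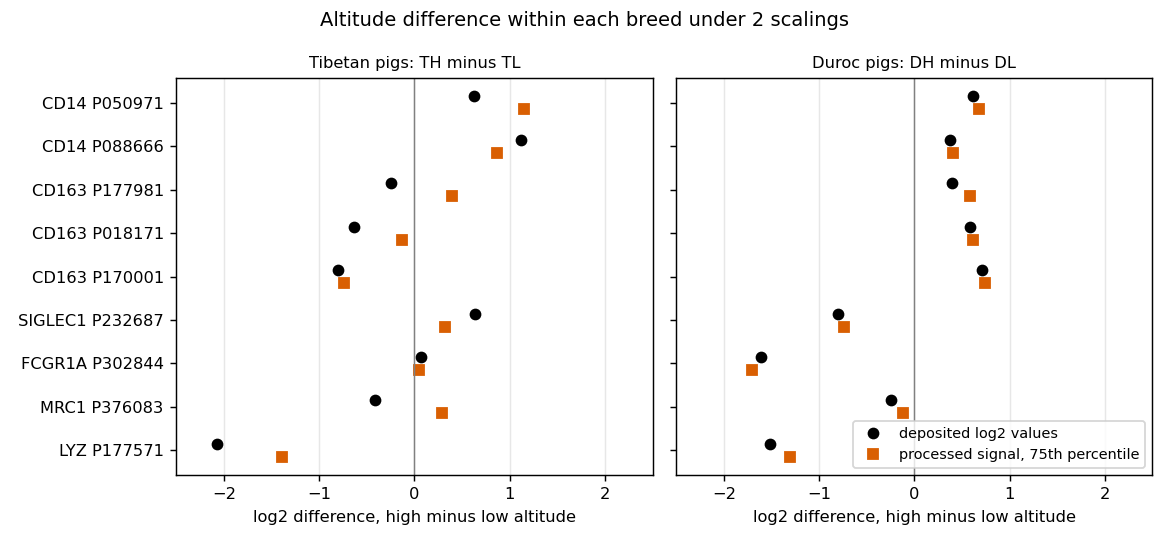
Difference between high and low altitude (horizontal axis, log2 units) at each of the 9 probes in Tibetan pigs (left) and Duroc pigs (right), 2 arrays per group. Circles are deposited values and squares processed signals scaled to the 75th percentile; in Tibetan pigs the brightest CD163 probe moves from -0.25 to 0.39 and MRC1 from -0.41 to 0.29, while no probe changes side in Duroc pigs.

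Between breeds at the same altitude, TH minus DH was called at 4 of 9 probes, beside 9.33% of all tested probes (4.17% positive and 5.16% negative) and 14.5% of RefSeq probes. All 4 were lower in TH. They were LYZ (5.44-fold), MRC1 (2.12-fold) and 2 probes of CD163 (1.91-fold and 2.01-fold). TL minus DL was called at 7 of 9 probes, beside 37.5% (16.0% positive and 21.5% negative) and 36.0% of RefSeq probes, with LYZ, FCGR1A, SIGLEC1, MRC1 and both CD14 probes lower in TL and 1 CD163 probe higher. The lower LYZ and MRC1 levels in Tibetan pigs were therefore called at both altitudes, and those of FCGR1A, SIGLEC1 and CD14 at low altitude. Both contrasts set a moved group beside an unmoved group on the other slide, so that breed, slide and move cannot be told apart in them. At high altitude, TH minus DH was -0.14 for FCGR1A, 0.23 for SIGLEC1, and -0.60 and -0.62 for CD14, none of them called. For CD14, TL minus DL was -0.62 at the brighter probe, close to the -0.60 of TH minus DH, and -1.36 at the other probe. On the same slide, TH minus DL was called at 3 of 9 probes, beside 14.1% (6.90% positive and 7.24% negative) and 21.2% of RefSeq probes, with LYZ, FCGR1A and MRC1 lower in TH. TL minus DH was called at 3 of 9, beside 33.9% (15.1% positive and 18.8% negative) and 38.2% of RefSeq probes, with MRC1 and both CD14 probes lower in TL. In the order of group means, 24 of the 27 neighboring pairs over the 9 probes differed at an FDR below 0.05, a level that 58.9% to 77.4% of all tested probes reached in the 6 group contrasts. The 3 pairs that did not were those given above for CD14, CD163 and FCGR1A.

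Genes that work with these receptors were described at their brightest probe. Counts over genes with a RefSeq probe use the brightest such probe. Probes without a RefSeq accession were named only by the study's tables, so their calls are not independent of those tables. Among genes named below for their interaction, this holds for SCARB2, CTSL, CTSC, PSAP, CX3CR1 and ADGRE1. The shares called over all tested and over RefSeq probes were given above for each effect. Of 12 partners of CD14 in the recognition of bacterial lipid, 9 were tested, all with a RefSeq probe. Called interactions of RefSeq probes were mostly positive, with 21.8% of these probes positive and 5.96% negative. Of the 9 genes 3 were called for the interaction, all positive. They were TRAF6, a signaling ligase downstream of TLR4 (2.15), LBP, which brings lipopolysaccharide to CD14 (1.96), and LY86, the partner of CD180 (1.50), which was named after its value was seen. LBP was highest in TH at 8.17, while TL was at 6.64, DL at 6.93 and DH at 6.50, whereas TRAF6 was highest in DL at 12.40, against 10.34 to 10.86 in the other groups. The TLR4 complex itself was not called for the interaction, with -0.52 at TLR4 (FDR = 2.80e-04 in limma) and 0.41 at its cofactor LY96 (FDR = 6.47e-04 in limma). After scaling to the 75th percentile LY96 was called, with 1.03, and TLR4 was at -0.07. The 4 TLR4 probes were not of the same sign, running from -0.52 to 0.67. For the breed effect 3 of the 9 were called, all lower in Tibetan pigs, and for altitude 2 were called higher and 1 lower. After scaling to the 75th percentile, 1 was called higher and 5 lower in Tibetan pigs, 4 higher and 1 lower at high altitude, and 5 for the interaction, all positive, while the counts were unchanged under the other 3 scalings.

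Of 11 Fc receptors and signaling partners, 7 were tested. The breed effect was called at 4 of them, all lower in Tibetan pigs, but at 0 to 4 under the other scalings. Of the 6 with a RefSeq probe, 3 were called lower. For the interaction SYK, the kinase that carries the signal of Fc receptors, was positive (0.89) and FCER1G, the common gamma chain through which FCGR1A signals, was negative (-1.0). FCER1G was highest in DH at 16.56 and lowest in TH at 15.63, with DL at 15.91, an order unlike that of FCGR1A. Its interaction was called under 2 of the 4 other scalings and was -0.41 after scaling to the 75th percentile.

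Of 25 other scavenger, lectin and engulfment receptors and ligands, 12 were tested, and MARCO, a scavenger receptor of alveolar macrophages, had no named probe. The interaction was called at 1 gene upward and 5 downward, but at 2 upward and 2 downward after scaling to the 75th percentile. Of the 9 with a RefSeq probe, 2 were called upward and 3 downward. HPX, the heme carrier hemopexin, was positive (1.23), and SCARB2, a lysosomal receptor, and HMOX1, the enzyme that breaks down heme, were negative (-2.88 and -1.34). HMOX1 was lowest in TH at 14.92, while TL was at 16.12, DL at 16.38 and DH at 16.52. HP encodes haptoglobin, which CD163 takes up in complex with hemoglobin. It was at 16.06 in both moved groups and at 15.67 in both groups that stayed in place. The interaction of HP was -0.78 (FDR = 5.00e-05 in limma). HP was looked up for this role after its value was seen, and its interaction was -0.19 after scaling to the 75th percentile.

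Of 29 lysosomal proteins, 17 were tested. In Tibetan pigs 7 were called higher and 2 lower, a split of 6 and 5 after scaling to the 75th percentile. Of the 12 with a RefSeq probe, 2 were called higher and 2 lower. Of all tested probes 12.8% were called higher and 14.6% lower in Tibetan pigs. The proteases CTSL and CTSD had called positive interactions (1.77 and 1.04), and PSAP, the precursor of the saposins, and the protease CTSC had negative ones (-2.53 and -2.45). CTSC and PSAP were highest in TL, at 14.18 and 11.00, while CTSL was highest in TH, at 11.10.

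Of 26 lineage factors and receptors of macrophages, 16 were tested, and CSF1R had no named probe. For the breed effect 8 were called lower and 1 higher in Tibetan pigs, and the lower calls numbered 4 to 8 under the other scalings. Of the 10 with a RefSeq probe, 4 were called lower and 1 higher. Of all tested probes 14.6% were called lower in Tibetan pigs, and of RefSeq probes 19.6%. Among the lineage genes called lower were SPI1, the transcription factor of myeloid cells (-0.66), and PPARG, a factor needed by alveolar macrophages (-0.54). SPI1 was called under 1 of the 4 other scalings and PPARG under 2. For altitude 5 were called higher and none lower at high altitude. The higher calls numbered 2 to 10 under the other scalings, with no lower call. Of the 10 with a RefSeq probe, 3 were called higher, beside 25.2% of all tested RefSeq probes. CCR2, the chemokine receptor of monocytes, and NCF1, an oxidase subunit, had called positive interactions (1.57 and 1.15), and CX3CR1 and the macrophage receptor ADGRE1 negative ones (-1.60 and -1.33). CX3CR1 and ADGRE1 were highest in DH, at 13.51 and 11.74, and lowest in TH, at 12.07 and 10.16.

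**Figure D4:**
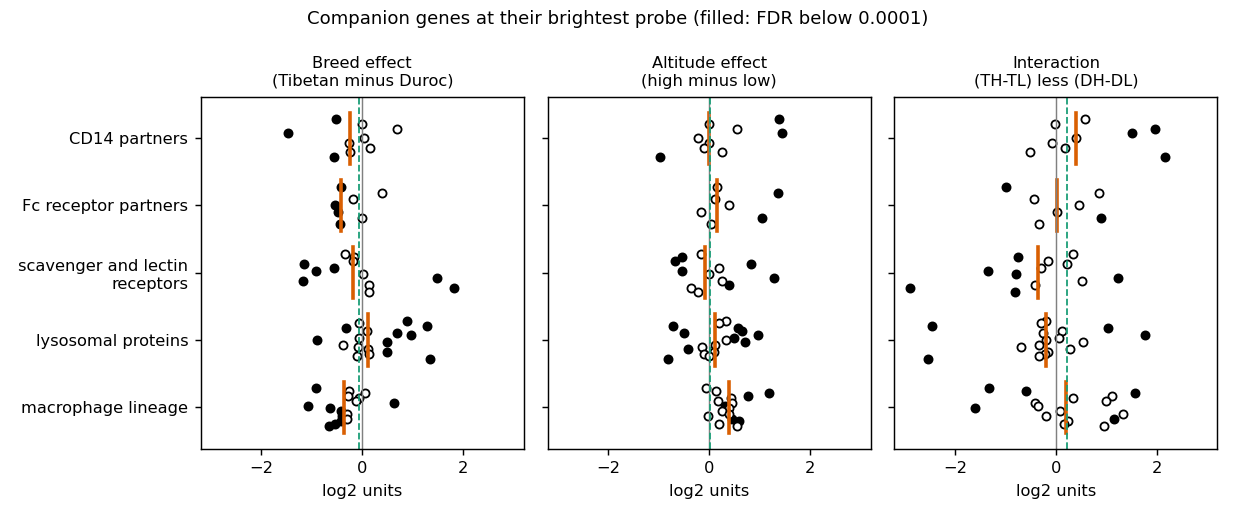
Breed effect, altitude effect and interaction (horizontal axes, log2 units) of the tested genes of 5 lists at their brightest probe, 1 point per gene from 8 arrays, filled where the FDR was below 0.0001. The thick line is the median of a list and the dashed line that of all tested probes. The macrophage lineage list lies mostly below 0 for breed. Its median altitude effect is 0.40, beside 0.01 over all tested and 0.16 over RefSeq probes.

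Markers of other cell types moved with the groups as well. Of 9 markers of secretory airway cells, 4 were tested (BPIFA1, BPIFB1, LTF and PIGR), and all 4 were called higher in Tibetan pigs under all 5 scalings. Their mean log2 level was between 14.5 and 14.6 on the Tibetan arrays and between 11.8 and 11.9 on the Duroc arrays, opposite in direction to LYZ. Of 9 T and B lymphocyte markers 8 were tested, and 6 were called higher at high altitude. Their mean level was 11.9 for TH, 11.0 for DH, 10.5 to 10.6 for DL and 10.2 to 10.3 for TL. Of 7 endothelial markers 6 were tested, and 5 were called lower in Tibetan pigs, but 1 to 6 under the other scalings. Only 2 of the endothelial markers had a RefSeq probe, and 1 of them was called lower. Only 2 of 10 neutrophil markers, 4 of 8 dendritic cell markers and 5 of 8 alveolar type II markers had tested probes. The mean level of the 6 macrophage genes was 13.0 for TH, 13.3 for TL, 13.8 for DH and 14.3 for DL. Without LYZ it was 12.95 for TH and 12.82 for TL, and 13.36 for DH and 13.69 for DL. By deposited values the mean was thus lower in TH than in TL only with LYZ included. That order depended on the scaling. With processed signals scaled to a percentile, TH was above TL at the brightest probe of each gene except LYZ. The mean with LYZ was then no longer lower in TH. The part of other cell types in the differences of the macrophage genes was not tested.

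**Figure D5:**
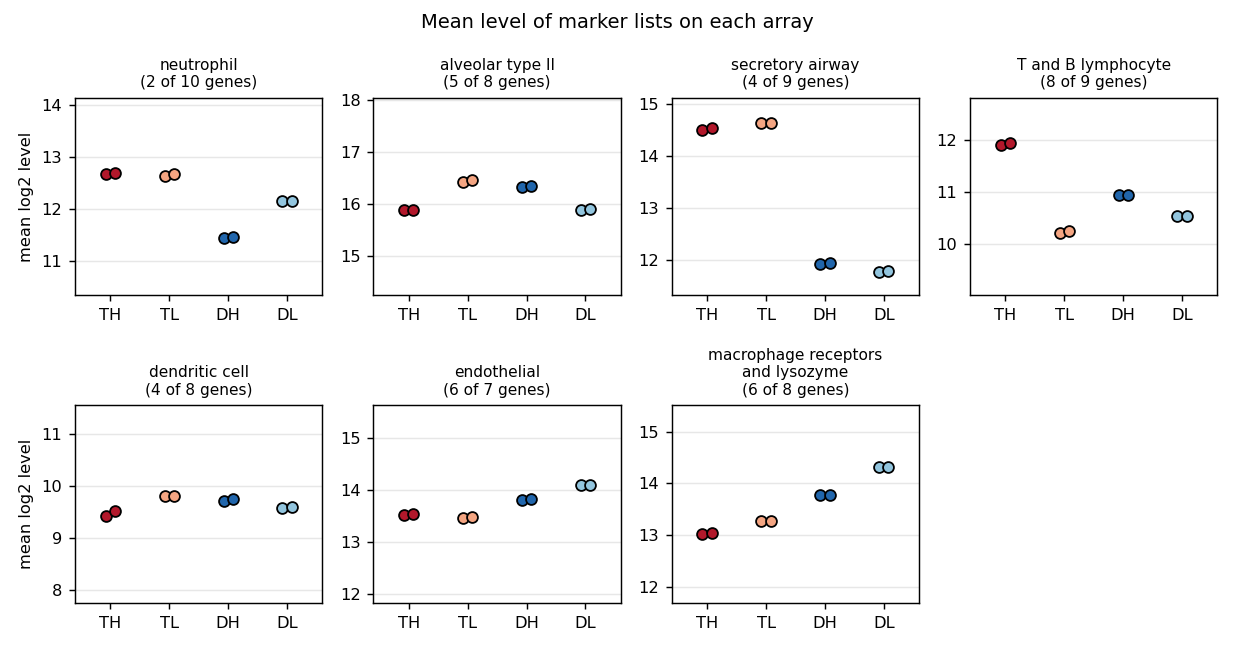
Mean deposited log2 level (vertical axis) of the tested genes of 7 marker lists on each of the 8 arrays (points) in the groups TH, TL, DH and DL (horizontal axis). Secretory airway markers are higher in Tibetan and the macrophage receptors and lysozyme higher in Duroc pigs; levels of different lists are not comparable with each other.

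For each of the 6 genes, likeness to 3823 other genes with a symbol was measured as the root mean square difference over the 8 arrays after each probe was centered on its own mean. CD14 was most like EIF2B1 (0.027), RNASE6 (0.049) and DOK7 (0.067), and its own root mean square deviation from its mean was 0.44. The genes nearest to CD163 were ICAM3 (0.046), SMYD2 (0.052) and ZNF672 (0.058), against a deviation of its own of 0.17. SIGLEC1 was most like ZNF382 (0.074), RAD51C (0.076) and HLX (0.083), and MRC1 like CPT1A (0.069), BMP6 (0.075) and NCAM1 (0.084). FCGR1A was most like LOC100158108 (0.11), LOC100739447 (0.12) and WIF1 (0.14). For LYZ the nearest genes were CRSP3 (0.47), EYA3 (0.48) and RIPPLY3 (0.56). The CRSP3 probe was well above background on 3 arrays and the EYA3 probe on 6, so that their lower values are near the floor, whereas the other probes named for likeness were above it on all 8. These are descriptions over 8 arrays that share their group structure.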

How the data were processed

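Spot intensity was measured on 8 arrays, 2 per group, with groups from the labels. The authors scanned the arrays and extracted each spot's intensity with Agilent Feature Extraction (10.7.3.1 in the file headers, 9.1 in the submitters' processing notes). The authors also deposited a normalized log2 table. The methods name RMA, but the exact steps are not given. Its columns shared a median of 7.40 and followed the processed signals (Spearman's rho at least 0.999987), so their scale is that of quantile-normalized log2 values.

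Breed, altitude and their interaction were fitted to these log2 values with limma 3.58.1 (R 4.3.3). The 34406 probes that were well above background on 1 array or more entered the fit, and p-values were adjusted by Benjamini-Hochberg. The fit was tested on simulated data. Tables and figures used Python 3.11.15, numpy 2.4.6, pandas 2.3.3 and matplotlib 3.10.9. Symbols came from the study's tables, which were used in part (3655 probes), and from RefSeq accessions (2683 of 3250 matched). The tables list differentially expressed genes, so shares of RefSeq probes are given too.

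Genes named beside the members were, in each list, up to 2 per direction with the largest called interaction, plus MARCO, LY96, TLR4, CSF1R, SPI1 and PPARG, and the 3 nearest genes for likeness. LY86 and HP fall outside this rule and were named after their values were seen. The members and lists were chosen with earlier results of these data known. Alternatives were 4 scalings of the scanner signals (processed signal after quantile normalization or scaling to its 75th percentile, and normexp of the median signal with an offset of 0 or 50), other filters, thresholds and fits, and leaving out each array. The number of arrays limits the precision, and no probe sequence or coordinate was used here.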

Additional observations from a re-analysis of the deposited data

Results flagged for a closer look

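The altitude difference differed between the breeds, by the interaction of the limma fit at an FDR below 0.0001, at 6 of the 9 probes. CD163 was higher at high altitude in Duroc and, by deposited values, lower in Tibetan pigs at each of its 3 probes, with interactions of -1.52 at A_72_P170001, -1.22 at A_72_P018171 and -0.64 at A_72_P177981. At the last of these the Tibetan difference of -0.25 turned to 0.39 after scaling to the 75th percentile, and the interaction was -0.19. SIGLEC1 showed the opposite pattern, with an interaction of 1.44. For FCGR1A the interaction was 1.68, with a difference of -1.61 in Duroc and 0.07 in Tibetan pigs. For LYZ both breeds were lower at high altitude and the interaction was -0.56, and -0.08 after that scaling. The slide and the move of the pigs cannot be told apart from all 6.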

How the results depend on the processing

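With 2 arrays per group, the number of calls at an FDR below 0.0001 depended on the number of arrays. With any single array left out, calls among the 9 probes numbered 2 to 4 of 7 for breed, 1 to 2 of 4 for altitude, 1 to 2 of 6 for the interaction, 1 to 3 of 6 for TH minus TL, 0 of 5 for DH minus DL, 1 of 4 for TH minus DH and 2 to 5 of 7 for TL minus DL. The called effects all kept an FDR below 0.05, and 23 to 24 neighboring pairs of groups differed. Leaving out both TL arrays, chosen after seeing the data for their higher raw signal, gave 0 calls for DH minus DL and 1 for TH minus DH.

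Samples of the same number did not deviate together (r of -0.04 to 0.09 over probes), so that they share only a number. With the replicate number as a block, which costs a degree of freedom, calls were 4 for breed, 1 for altitude, 2 for the interaction, 3 for TH minus TL, 0 for DH minus DL and 1 for TH minus DH.

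DH minus DL had 3 calls with normexp without offset, without a filter on dim probes and without moderation, and 9 at an FDR below 0.01 and below 0.05. TH minus DH had 7 with probes above background on all 8 arrays and with an intensity trend, 8 at an FDR below 0.01 and 9 below 0.05. The altitude effect had 7 below 0.05. Signs turned for values near 0 or at bright probes. The interaction of the brighter CD14 probe was -0.014, -0.0067 and -0.012 without TH replicate 1, DH replicate 2 and DL replicate 2, and 0.044 at most, without TH replicate 2. The altitude effect of the brightest CD163 probe was -0.021 with quantile-normalized processed signals. With processed signals scaled to the 75th percentile, MRC1 turned to 0.085 for altitude and 0.42 for the interaction. The cause was not tested.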
